A study of Homo sapiens with 12 samples.

Results

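The S100 proteins and the annexins were followed at the RNA level in 2 PDAC cell lines. The set held the genes whose symbol is an S100A number, S100B, S100P, S100Z, an annexin (ANXA) number or ANXA8L1, together with S100PBP, whose product binds S100P. These were 33 of the 48114 genes in each deposited table, 20 on the S100 side (19 S100 genes and S100PBP) and 13 annexins. PolyA-selected RNA was sequenced in 12 libraries, in 4 groups of 3 biological replicates. PANC-1 cells, a duct-derived line that the study uses as basal-like, received a control siRNA (siCtrl), siRNAs against QKI (siQKI) or siRNAs against RBFOX2 (siRBFOX2), the latter 2 at 40 nM, and were collected after 48 h. HPAF-II cells, a pancreatic adenocarcinoma line that the study uses as classical, received siCtrl only, also for 48 h, so each subtype was represented by a single line and no knockdown was measured in HPAF-II. All groups had been transfected, and no untransfected cells were included.

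S100 proteins are small calcium-binding proteins that mostly work as dimers. On binding calcium they expose a surface that grips target proteins, and several are also secreted and act on receptors such as AGER (RAGE) and TLR4. Annexins bind negatively charged membrane phospholipids in the presence of calcium and take part in membrane repair, vesicle traffic and the organization of the cortical cytoskeleton. The families meet in defined pairs, the best known being the complex of S100A10 with annexin A2, which gathers plasminogen and its activators at the cell surface, and the pairing of S100A11 with annexin A1. QKI and RBFOX2 are RNA-binding proteins that control alternative splicing. In pancreatic cancer, S100P, S100A4, S100A6 and S100A14 are among the S100 genes most often followed as tumor markers.

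Both knockdowns were seen in the targeted RNA. QKI, the target of siQKI, was at 25909, 24539 and 26150 normalized counts (gene counts divided by a size factor for each library) in siCtrl libraries and at 4629.7, 5453 and 5020.2 in siQKI libraries. RBFOX2 was at 15355, 15508 and 15424 in siCtrl and at 2403, 2171 and 1712 in siRBFOX2 libraries. The log2 fold changes were -2.34 ± 0.06 for QKI and -2.89 ± 0.09 for RBFOX2 (SE; limma adjusted p of 9.2e-13 and 4.7e-11), and RBFOX2 was also lower in siQKI libraries, by -0.29 ± 0.09 (limma adjusted p = 0.021). The summed rescaled count (values scaled to a total of 1000000 in each library) of 7 duct-type epithelial markers was 2572 to 2666 in PANC-1 siCtrl and 11676 to 12564 in HPAF-II libraries. In PANC-1 nearly all of it came from the keratins KRT8, KRT18 and KRT19, whereas CDH1, KRT7 and EPCAM had means of 2.87, 4.16 and 13.8 and MUC1 was at 17.6 to 23.3, and all 7 were at least 2-fold higher in HPAF-II without overlap. The mesenchymal marker VIM was at 5312 to 5499 rescaled counts in PANC-1 siCtrl libraries and at 15.2, 0.283 and 0.300 in HPAF-II replicates 1, 2 and 3.

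A single HPAF-II library stood apart for the S100 genes. The members together made up 0.464% to 0.521% of each PANC-1 library. Their share of the HPAF-II libraries was 0.841%, 0.826% and 1.06%, the highest being that of replicate 3. The S100 genes were 0.456%, 0.450% and 0.688% of the 3 HPAF-II libraries, whereas the annexins were 0.386%, 0.377% and 0.367%. Replicate 3 held the highest value for 10 of the 15 S100-side genes compared between the lines and for 3 of the 13 annexins. It was at least 1.5 times the mean of the other HPAF-II libraries for 9 of these 15 genes and for 1 of these 13, beside 22.4% of all genes compared. HPAF-II values are therefore given per library for most members and, where it matters, without replicate 3.

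**Figure D1:**
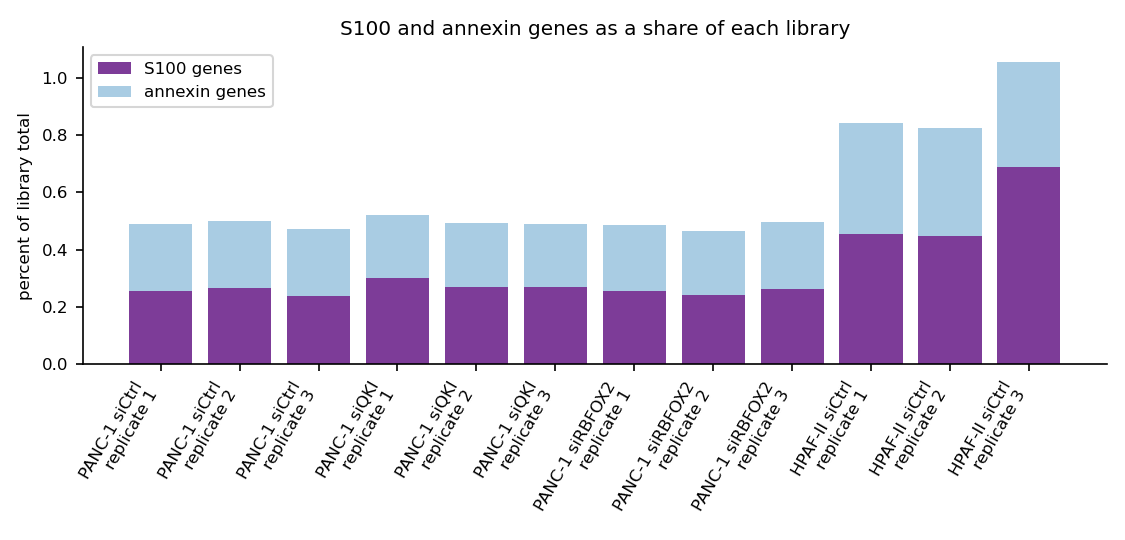
Share of each library total, in percent, taken by the S100-side genes (dark) and the annexins (light), 1 stacked bar per library. The 9 PANC-1 bars lie between 0.464% and 0.521%, and HPAF-II replicate 3 rises to 1.06% through its S100 part while its annexin part is level with the other HPAF-II libraries.

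Not every member was expressed. Of the 33 genes, 25 averaged 10 normalized counts or more over the 9 PANC-1 libraries and were tested. The 8 that did not were S100A7, S100A7A, S100A8, S100A9, S100A12, S100B, ANXA10 and ANXA13. S100A7A, S100A12 and S100B were listed at 0 in all 12 libraries, and S100A8, the partner of S100A9 in the myeloid protein calprotectin, reached no more than 2.75 in any library. S100Z, at 10.3 to 89.9, passed the minimum in PANC-1 but was listed at 0 in the 3 HPAF-II libraries.

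Levels between genes were compared per kb of exon (GENCODE v29 exons of each gene, all isoforms merged). In PANC-1 siCtrl cells the highest levels were those of S100A6, S100A11 and S100A10, at 329500, 326900 and 161100 normalized counts per kb. ANXA2, the partner of S100A10, followed at 54680 and led the annexins. Merged exons came to 8824 bases for ANXA2 and 1543 for S100A10, where their longest coding transcripts have 1676 and 1202. The order of these 2 genes, here and in HPAF-II, therefore depends on the length used. At the other end of the tested genes stood S100A14, at 32.1, and S100Z, at 35.6. In HPAF-II cells S100A11 and S100A6 were again highest, at 562700 and 510100, and S100A10 (159500) and S100A14 (135900) came next. Without HPAF-II replicate 3 these 4 stood at 574800, 363500, 126700 and 136300, so the order of S100A10 and S100A14 turned.

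Depletion of QKI changed 9 of the 25 tested members (limma adjusted p under 0.05, that is 36% of them, where 33.0% of all 22544 tested genes were past the threshold), so the share of members called was close to that of genes at large. Those that rose were S100A4, S100P, S100A10 and ANXA6 (4 genes, background of rises 14.9%). Those that fell were S100A16, S100A2, ANXA5, ANXA11 and ANXA4 (5 genes, background of falls 18.1%). The other 16 did not pass. The median log2 fold change was -0.11 over the 25 members and 0.03 over all tested genes. With the libraries rescaled by their upper quartile, 7 members were higher and 4 lower, beside 4225 higher and 3057 lower among all genes, where the deposited scaling gave 3362 and 4070.

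Depletion of RBFOX2 changed 7 of the 25 (28%, with 26.5% of all tested genes past the threshold). ANXA6 and ANXA7 rose (2 genes, background 12%), and S100A16, S100A2, ANXA5, S100A3 and S100A13 fell (5 genes, background 14.5%). The median was -0.09 over the members and 0.01 over all tested genes. The knockdowns were compared with the same siCtrl libraries, so values that both share are set side by side here without an overlap test. S100A16, S100A2 and ANXA5 fell in both and ANXA6 rose in both. Of the rest, 5 members passed in siQKI alone, 3 in siRBFOX2 alone and 13 in neither. In these bulk libraries, fewer cells of a kind and less RNA per cell cannot be told apart.

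**Figure D2:**
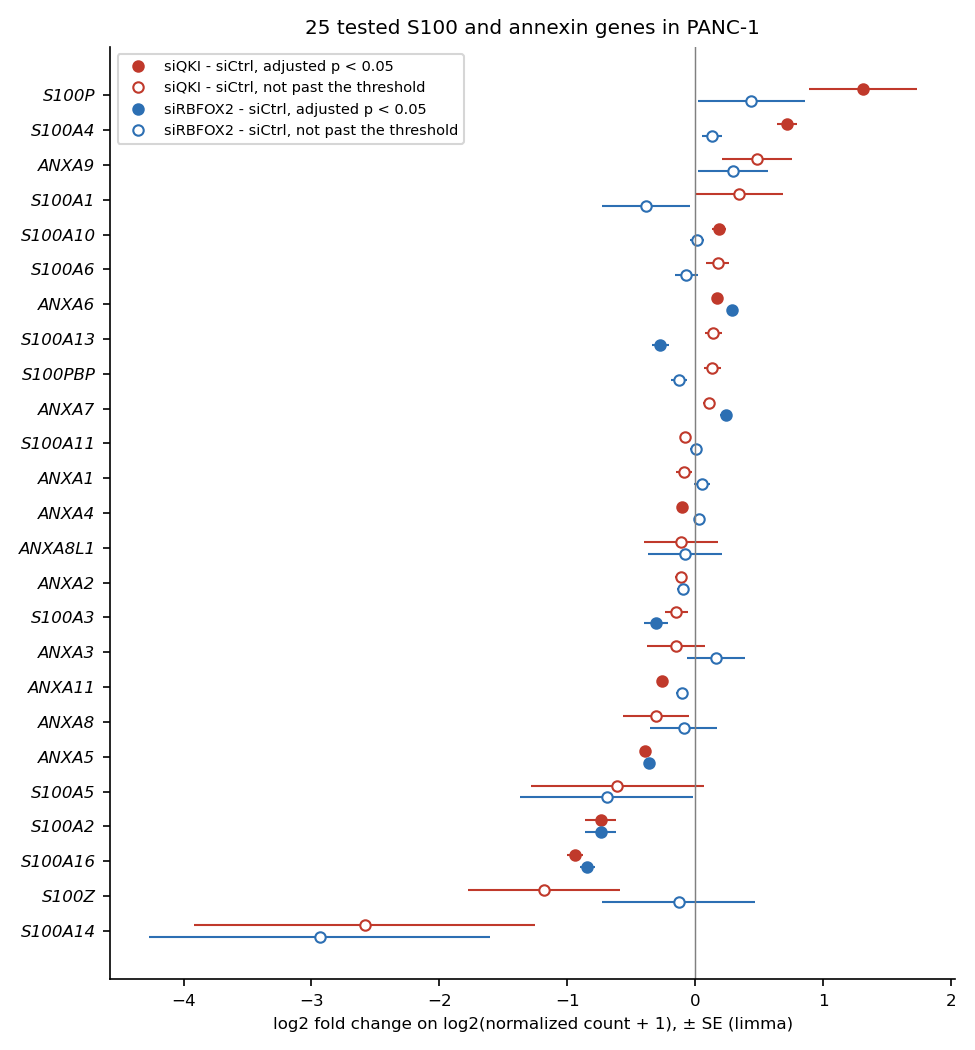
Log2 fold change on log2(normalized count + 1), with its standard error (limma), of the 25 tested members in siQKI (red) and siRBFOX2 (blue) against siCtrl, ordered by the siQKI value. Filled points are past the adjusted p threshold. S100A16 and S100A2 lie left of 0 with both knockdowns, S100A4 is filled only for siQKI, and the wide bars belong to genes with low counts such as S100A14.

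The largest fall among well-counted members was that of S100A16, a broadly expressed S100 protein whose gene lies at chr1:153606879-153613137 (hg38). It was at 44939, 44469 and 49299.7 normalized counts in siCtrl, at 25726, 23703.5 and 22821 in siQKI and at 27495, 23739.7 and 26000.5 in siRBFOX2 libraries. All knockdown libraries lay below all siCtrl libraries, with no overlap. The log2 fold change was -0.94 ± 0.06 with siQKI (SE; limma adjusted p = 1.9e-08) and -0.85 ± 0.06 with siRBFOX2 (limma adjusted p = 1.3e-07), and the call held under all 17 alternatives run for each knockdown. Between the knockdowns the difference was -0.10 ± 0.06 (limma adjusted p = 0.30).

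S100A2, an S100 protein of squamous and basal epithelia that is used as a marker of the basal-like state, fell by nearly the same amount with both siRNAs. Its siCtrl libraries were at 1729.8, 1606 and 1738.5 normalized counts, its siQKI libraries at 968, 1094 and 982 and its siRBFOX2 libraries at 839, 1088 and 1140.2. The lowest siCtrl library stood above the highest of either knockdown. The log2 fold change was -0.74 ± 0.12 in each (limma adjusted p of 2.2e-04 with siQKI and 3.4e-04 with siRBFOX2).

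S100A4, also called metastasin, which binds the heavy chain of non-muscle myosin IIA, moved the other way. It was at 11578.5, 13628 and 10968.5 normalized counts in siCtrl, 21556, 19612 and 18121 in siQKI, and 14202, 12604 and 12696 in siRBFOX2 libraries. The siQKI libraries were above all others, whereas the siRBFOX2 libraries overlapped with siCtrl. The log2 fold change was 0.72 ± 0.08 with siQKI (limma adjusted p = 5.2e-06) and 0.13 ± 0.08 with siRBFOX2 (limma adjusted p = 0.26). The direct contrast of siQKI with siRBFOX2 gave 0.58 ± 0.08 (limma adjusted p = 7.2e-05).

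These genes share a stretch of chromosome 1 in which 16 S100A genes are grouped, 11 of them tested in PANC-1. Along it, S100A4 and S100A3 are separated by 1522 bases, and S100A16 and S100A14 by 1140. The 250 bases before the annotated start of S100A16, S100A2 and S100A4 (RefSeq, GRCh38.p14, minus strand, chr1:153613138-153613387, chr1:153565845-153566094 and chr1:153545807-153546056) are shown because S100A16 and S100A2 fell where S100A4 rose. Capitals mark matches on either strand to GGGCGG (the GC box), TATAAA (the TATA box), CACCTG (an E-box, CAGGTG on the other strand) and TGANTCA (the AP-1 motif).
S100A16: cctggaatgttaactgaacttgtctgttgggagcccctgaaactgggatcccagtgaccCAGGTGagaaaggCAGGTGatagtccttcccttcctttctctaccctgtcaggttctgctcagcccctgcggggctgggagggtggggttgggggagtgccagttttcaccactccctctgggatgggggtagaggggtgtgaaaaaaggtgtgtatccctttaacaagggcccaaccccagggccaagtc
S100A2: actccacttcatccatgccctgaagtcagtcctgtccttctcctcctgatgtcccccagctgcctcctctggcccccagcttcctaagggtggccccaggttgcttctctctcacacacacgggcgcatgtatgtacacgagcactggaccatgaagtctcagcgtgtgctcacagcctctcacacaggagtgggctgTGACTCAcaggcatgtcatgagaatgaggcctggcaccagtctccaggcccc
S100A4: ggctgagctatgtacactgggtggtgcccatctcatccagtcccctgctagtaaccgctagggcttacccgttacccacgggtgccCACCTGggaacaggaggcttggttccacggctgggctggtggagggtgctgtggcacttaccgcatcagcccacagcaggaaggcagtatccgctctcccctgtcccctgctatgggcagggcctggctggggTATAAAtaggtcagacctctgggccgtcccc
The S100A16 window holds CACCTG at 2 places, the S100A2 window holds TGANTCA once, and the S100A4 window holds CACCTG once and a TATA box close to the start. Of 35116 RefSeq windows of this length, 17.5% hold CACCTG, 6.57% TGANTCA, 10.7% TATAAA and 42.6% GGGCGG. A match describes the letters and is not evidence of binding.

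**Figure D3:**
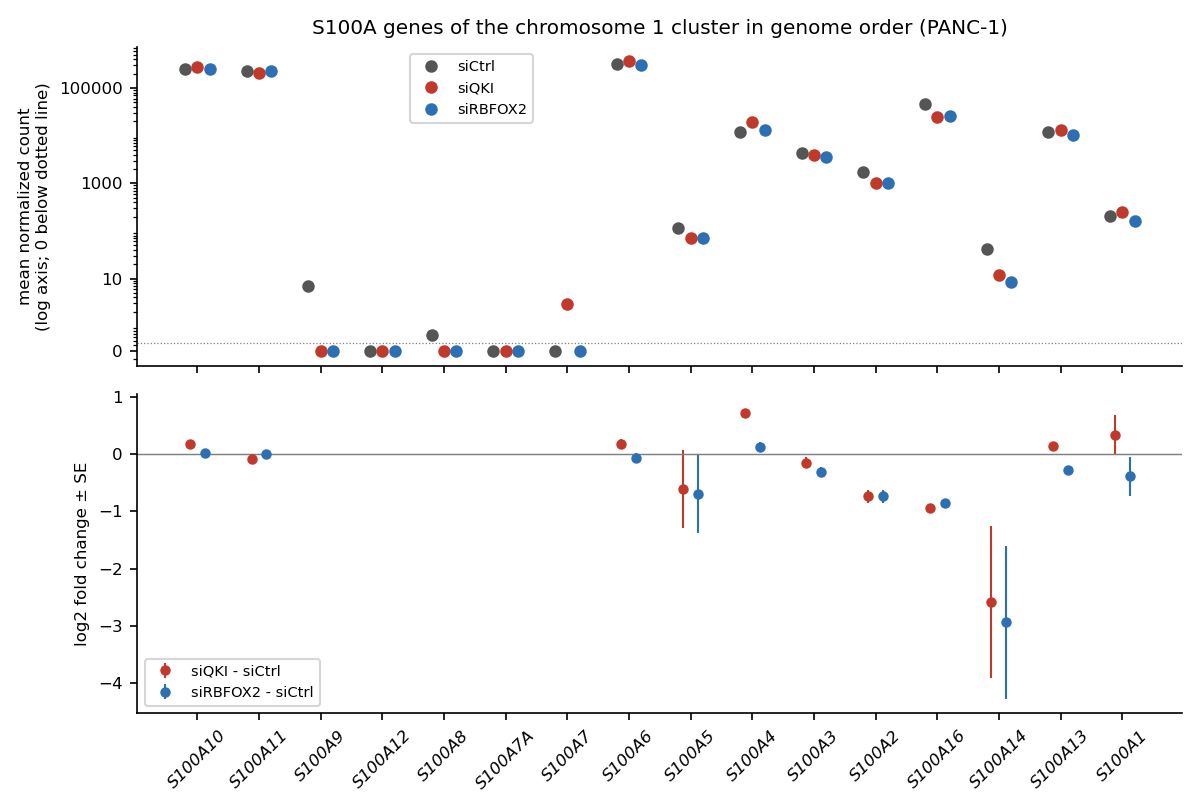
The 16 S100A genes grouped on chromosome 1 in PANC-1, in genome order (not to distance). Upper panel, mean normalized count per group on a log axis, with 0 below the dotted line. Lower panel, log2 fold change with its standard error for the 11 tested genes. S100A4, at 0.72 with siQKI, sits beside S100A3, at -0.15, and S100A2 and S100A16 lie below 0 with both knockdowns.

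The next genes of that stretch changed less or were counted too low to be called. S100A3 was at 4275, 4288 and 4540.5 in siCtrl, at 3963, 3914 and 3947 in siQKI and at 3061, 3361 and 4241 in siRBFOX2 libraries. It fell with siRBFOX2 (-0.31 ± 0.09; limma adjusted p = 0.022) and had -0.15 ± 0.09 with siQKI (limma adjusted p = 0.26). The siRBFOX2 call was lost without siCtrl replicate 3, siRBFOX2 replicate 1 or siRBFOX2 replicate 2, with limma adjusted p of 0.079, 0.11 and 0.076. S100A14, which binds RAGE, was at 46.9, 38.0 and 38.2 in siCtrl, at 0, 13.1 and 23.1 in siQKI and at 0, 16.5 and 8.34 in siRBFOX2 libraries. No knockdown library reached the lowest siCtrl library, but the log2 fold changes of -2.59 ± 1.34 and -2.94 ± 1.34 did not pass (limma adjusted p of 0.16 and 0.13). The ratios of its means were 0.294 and 0.201, nearer to 1 than the fitted changes. S100A5 was at 25.2 to 218 normalized counts in PANC-1 libraries and S100A1 at 104 to 280, with groups that overlapped for both.

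S100A13, which takes part in the release of FGF1 outside the classical secretory route, separated the knockdowns. Its libraries were at 12539, 12984 and 11033 normalized counts with siCtrl, at 13649, 13912.5 and 12680.4 with siQKI and at 10816, 9851.5 and 9559 with siRBFOX2. The siRBFOX2 libraries lay below all others, while siQKI and siCtrl overlapped. The log2 fold change was -0.27 ± 0.07 with siRBFOX2 (limma adjusted p = 0.0058) and 0.14 ± 0.07 with siQKI (limma adjusted p = 0.12, or 0.028 with upper-quartile scaling), and the difference of the knockdowns was 0.41 ± 0.07 (limma adjusted p = 2.9e-04). S100A13 overlaps S100A1 on the other strand and CHTOP, and since the strand setting of the counting is not stated, its reads cannot be fully told apart from theirs. CHTOP, at a mean of 27260 in PANC-1 siCtrl libraries, exceeded S100A13, at 12185.

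In the direct contrast of siQKI with siRBFOX2, 7 of 25 members passed (28%, with 21.5% of all genes). S100A4, S100A13, S100A10 and S100PBP were higher with siQKI (4 genes, background 9.93%), and ANXA4, ANXA7 and ANXA11 were lower (3 genes, background 11.6%). S100PBP, the S100P-binding nuclear protein, was at 4165, 3956 and 4339 in siCtrl, at 4799.6, 4429 and 4432 in siQKI and at 3663, 3974 and 3766 in siRBFOX2 libraries. Its siQKI and siRBFOX2 libraries did not overlap, with a difference of 0.26 ± 0.06 (limma adjusted p = 0.0083), although neither knockdown passed against siCtrl (0.13 ± 0.06 and -0.13 ± 0.06, limma adjusted p of 0.13 and 0.17). S100PBP overlaps YARS1 in the annotation, and their reads cannot be fully told apart. YARS1 was at a mean of 45970 in PANC-1 siCtrl and 59620 in HPAF-II libraries, where S100PBP was at 4153 and 1872. No alternative run addresses this overlap. With upper-quartile scaling S100PBP passed with siQKI against siCtrl, at 0.19 (limma adjusted p = 0.029). The calls of S100A4, S100A13 and S100PBP in the direct contrast held under all 17 alternatives. The ANXA7 call was lost under 12 of them, including the removal of any siQKI library, and its highest limma adjusted p was 0.20. ANXA11 lost its call under 6, ANXA4 under 5 and S100A10 under 5, with limma adjusted p of up to 0.14, 0.088 and 0.17. With upper-quartile scaling 5 members were higher and 0 lower, and the genes of all kinds turned as well, from 2238 higher and 2606 lower to 2764 higher and 2230 lower.

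S100A10 and S100P rose with siQKI. S100A10, the light chain of the complex with annexin A2, was at 247291, 264334 and 233963 in siCtrl, at 308153, 268506 and 271413 in siQKI and at 250072, 245797 and 256364 in siRBFOX2 libraries. The siQKI libraries were above the rest by a small margin, with a log2 fold change of 0.18 ± 0.05 (limma adjusted p = 0.015) against 0.01 ± 0.05 with siRBFOX2 (limma adjusted p = 0.88). The siQKI call was lost without siCtrl replicate 3 or siQKI replicate 1 (limma adjusted p of 0.081 and 0.083). S100P, which binds ezrin and signals through RAGE, was at 57.4, 130 and 106 in siCtrl, at 237, 165 and 315 in siQKI and at 96.7, 89.1 and 229.7 in siRBFOX2 libraries. Its log2 fold change with siQKI was 1.31 ± 0.42 (limma adjusted p = 0.026). Without siCtrl replicate 1, siQKI replicate 1 or siQKI replicate 3 the adjusted p from limma was 0.11, 0.066 and 0.11.

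The abundant S100A6 and S100A11 showed no call. S100A6, or calcyclin, was at 309119, 358252 and 292529 in siCtrl, at 398021, 342313 and 342034 in siQKI and at 321260, 261874 and 333197 in siRBFOX2 libraries. The siQKI and siCtrl libraries overlapped, at 0.17 ± 0.09 (limma adjusted p = 0.15), where the value without siCtrl replicate 2 was 0.26 (limma adjusted p = 0.041). S100A11 was between 203196 and 232320 in the 9 libraries, with -0.08 ± 0.04 for siQKI and 0.00 ± 0.04 for siRBFOX2 (limma adjusted p of 0.21 and 0.96). Leaving out siQKI replicate 1 brought the siQKI value to -0.12 (limma adjusted p = 0.047).

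Among the annexins, ANXA5 fell most. Annexin A5, the phosphatidylserine-binding protein used as a stain for dying cells, was at 105093, 103348 and 106941 normalized counts in siCtrl, at 78906, 80076 and 80915 in siQKI and at 81427.5, 78527 and 85809.6 in siRBFOX2 libraries. The knockdown libraries lay below the siCtrl libraries with no overlap. The log2 fold change was -0.39 ± 0.04 and -0.36 ± 0.04 (limma adjusted p of 1.4e-06 and 6.3e-06), with a difference between knockdowns of -0.03 ± 0.04 (limma adjusted p = 0.61).

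ANXA6 was the member that rose in both. Annexin A6, which carries a doubled set of annexin repeats, was at 25341, 24825 and 25150.4 in siCtrl, at 29288, 27144 and 28429 in siQKI and at 31285, 29725 and 30823 in siRBFOX2 libraries, again without overlap with siCtrl. The changes were 0.17 ± 0.04 and 0.29 ± 0.04 (limma adjusted p of 0.0040 and 9.7e-05). ANXA7, or synexin, a membrane-fusion annexin, was at 37939.6, 40132 and 40544 in siCtrl, at 40311, 43746 and 43496.5 in siQKI and at 46845, 44667 and 48346 in siRBFOX2 libraries. It rose with siRBFOX2 (0.24 ± 0.05; limma adjusted p = 0.0011) and had 0.10 ± 0.05 with siQKI (limma adjusted p = 0.092), which passed without siQKI replicate 1 (0.14; limma adjusted p = 0.034) and with upper-quartile scaling (0.17; limma adjusted p = 0.0080).

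ANXA11 and ANXA4 fell with siQKI. Annexin A11, an adaptor that tethers RNA granules to lysosomes, was at 72012, 77165 and 74374 in siCtrl, at 64536, 62172 and 60389.7 in siQKI and at 72157, 64678 and 71077 in siRBFOX2 libraries. The change was -0.26 ± 0.05 with siQKI (limma adjusted p = 4.6e-04) and -0.11 ± 0.05 with siRBFOX2 (limma adjusted p = 0.11). Annexin A4 was at 40770.3, 43331 and 40604 in siCtrl, at 38367.5, 38177 and 39331 in siQKI and at 41783, 42334 and 42720 in siRBFOX2 libraries, with -0.11 ± 0.04 for siQKI (limma adjusted p = 0.044). That call was lost under 9 of 17 alternatives, among them the removal of siCtrl replicate 2, of any siQKI library or of siRBFOX2 replicate 1 (limma adjusted p of 0.055 to 0.20), and upper-quartile scaling brought it to -0.04. ANXA4 also overlaps AAK1 on the other strand, at a mean of 19170 in PANC-1 siCtrl libraries.

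ANXA2 and ANXA1, the partners of S100A10 and S100A11, were not called. ANXA2 was at 475343, 491651 and 480557 in siCtrl, at 451732, 447927 and 438510 in siQKI and at 464047, 419448 and 470226 in siRBFOX2 libraries. Both knockdowns lay below siCtrl, at -0.11 ± 0.04 and -0.10 ± 0.04, short of the threshold (limma adjusted p of 0.059 and 0.12). Without siRBFOX2 replicate 2 or 3 the siQKI value passed (limma adjusted p of 0.013 and 0.042), and without siRBFOX2 replicate 3 the siRBFOX2 value did (limma adjusted p = 0.049). ANXA1, also a ligand of formyl peptide receptors, ranged from 30433 to 38785 over the 9 libraries, with -0.09 ± 0.06 and 0.05 ± 0.06 (limma adjusted p of 0.30 and 0.60). The lower-count annexins ANXA3, ANXA8, ANXA8L1 and ANXA9 lay between 146 and 547 normalized counts in PANC-1 libraries and none passed. ANXA8 and ANXA8L1 are near-identical copies, so their counts may be split between them.

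**Figure D4:**
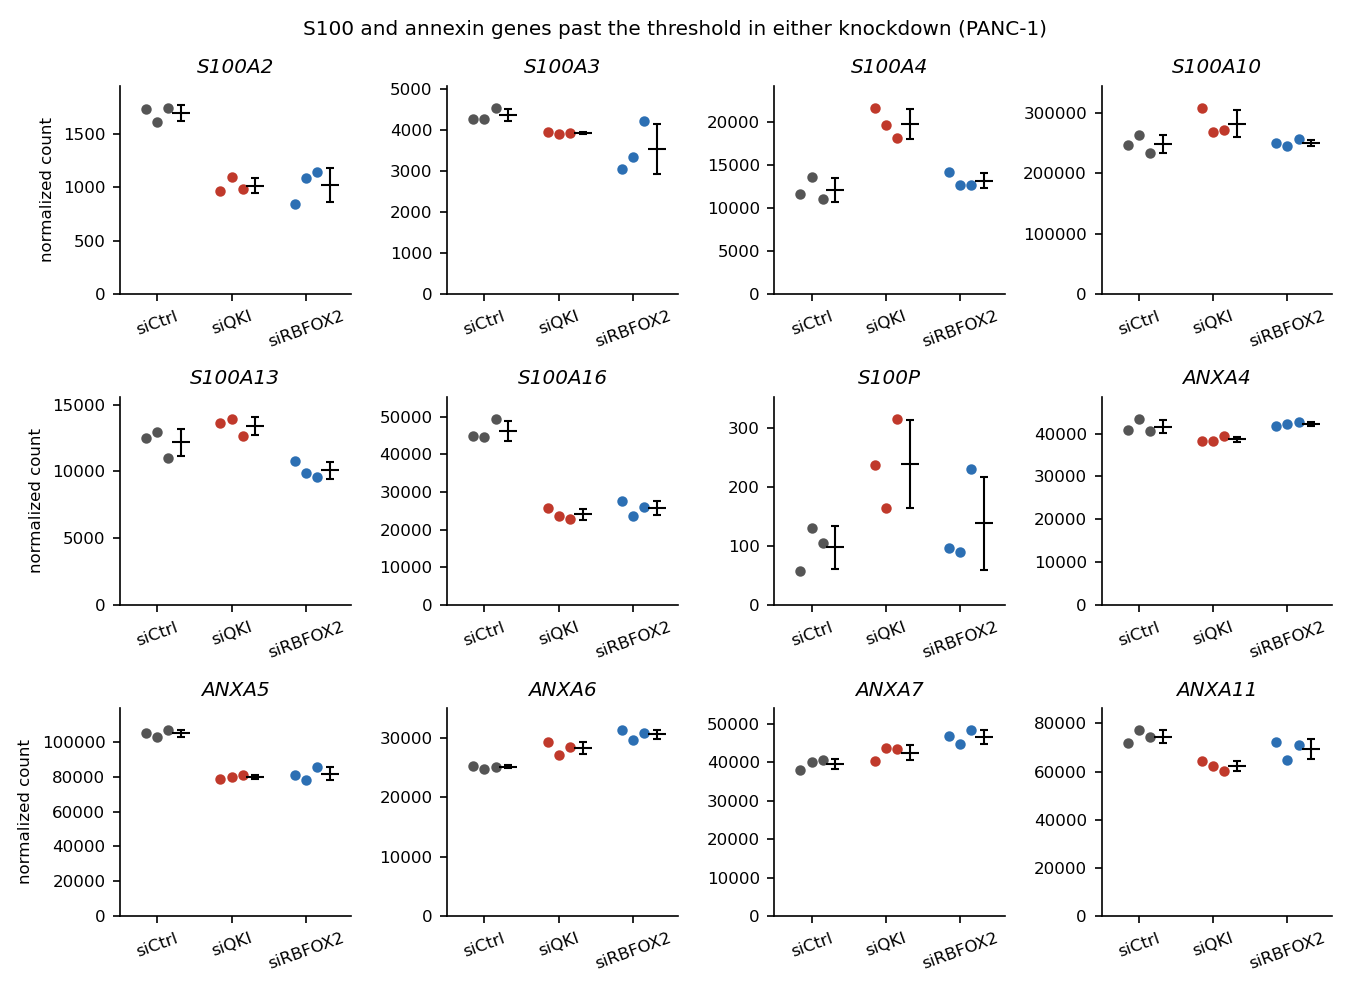
Normalized counts of the 12 members past the threshold in at least 1 knockdown, 3 PANC-1 libraries per group as points with mean ± SD beside them, on axes that start at 0. S100A16, S100A2 and ANXA5 are lower in all 6 knockdown libraries, S100A4 is higher in the siQKI libraries, and S100P has wide error bars at low counts.

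The RNA motifs of the depleted proteins were looked up in the longest coding transcript of each tested member (GENCODE v29, spliced, introns not searched). QKI is known to bind ACUAAC and, with the last base changed, ACUAAU, and RBFOX2 to bind UGCAUG. These were searched as DNA letters on the sense strand. Of the 9 members past the threshold with siQKI, 1 (ANXA5) held ACTAAC or ACTAAT, and of the 16 that did not pass, 5 did. Of the 7 past the threshold with siRBFOX2, 1 (ANXA7) held TGCATG, and of the other 18, 8 did. S100A16, S100A2 and S100A4 held none of them. ANXA5 is shown because it held ACTAAC at 2 places, in the coding sequence at chr4:121683446-121683451 and across the end of the coding sequence at chr4:121668467-121668472, and ANXA7 because of its match in the 3 prime UTR at chr10:73376023-73376028 (hg38, minus strand for each). Capitals mark the motif.
ANXA5 coding: cctgaaatcagaACTAACtggaaaatttga
ANXA5 end of coding: gtggagaagatgACTAACgtgtcacgggga
ANXA7 UTR: agagcaatgaccTGCATGcagcaatatcaa
Among transcripts whose length was within 20% of each, 12.1% held ACTAAC and 15.4% ACTAAT (ANXA5), and 44.2% held TGCATG (ANXA7). This share differs with transcript length, and for ACTAAC it was 4.16% for S100A4 and 30.7% for S100PBP. The counts of members with a match were not adjusted for length, so called and other members cannot be compared by them. A match is a description of the sequence and was not tied to a splicing event here.

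The remaining comparison set HPAF-II siCtrl against PANC-1 siCtrl cells, that is the classical against the basal-like line. The tables of the lines were normalized separately, so no test was run between them, and values were rescaled to the same total in each library. Of 28 members that averaged 10 normalized counts or more in 1 of the lines, 18 differed by at least 2-fold with no overlap of the 3 libraries of each line (64.3%), where 43.0% of all 24673 compared genes did. They were higher in HPAF-II for 13 (background 20.9%) and lower for 5 (background 22.0%). ANXA10, ANXA13 and S100A9 reached the minimum only in HPAF-II (PANC-1 siCtrl means of 7.04, 0 and 7.02) and are among the 13. S100Z reached it only in PANC-1 (HPAF-II mean of 0) and is among the 5. The direction of these genes followed in part from the filter, which was the same for all 24673 genes. They are included in the counts and in the median. The median log2 ratio of HPAF-II to PANC-1 was 0.86 over the 28 members and 0.02 over all compared genes. The 13 were 7 S100 genes and 6 annexins, and the 5 were 2 S100 genes and 3 annexins. On the values as deposited 11 members were higher and 6 lower, since ANXA11 and S100A11 fell short of 2-fold and S100PBP passed it. With 1 rather than 0.01 added before taking log2, 12 were higher and 3 lower. S100Z, ANXA8L1 and S100A9, all at low values, were then no longer counted, their log2 ratios going from -4.38, -1.48 and 5.34 to -0.26, -0.38 and 0.81.

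The largest differences on the S100 side were those of S100A14 and S100P. S100A14 was at 622, 606 and 607 rescaled counts in HPAF-II libraries and at 0.138, 0.109 and 0.111 in PANC-1 libraries, a ratio of the means of 5124. Its gene lies 1140 bases from S100A16, and its upstream window (RefSeq, GRCh38.p14, chr1:153616326-153616575, minus strand) is shown because it had the largest ratio among genes with counts in all 6 libraries. Capitals mark a CACCTG match.
S100A14: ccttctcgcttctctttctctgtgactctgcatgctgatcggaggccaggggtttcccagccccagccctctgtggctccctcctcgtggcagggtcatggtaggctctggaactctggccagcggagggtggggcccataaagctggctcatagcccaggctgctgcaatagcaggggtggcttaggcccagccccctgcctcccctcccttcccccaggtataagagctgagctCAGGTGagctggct
S100P was at 97.4, 121 and 171 in HPAF-II and at 0.170, 0.373 and 0.306 in PANC-1 libraries, a ratio of 459 (386 without HPAF-II replicate 3). S100A9, the other subunit of calprotectin, was at 0.715, 0.566 and 1.13 in HPAF-II, and listed at 0 in 2 of the 3 PANC-1 siCtrl libraries and at 0.0622 in the other. Of 8 myeloid markers, 1 (LYZ) was counted as higher in HPAF-II and 1 (ITGAM) as lower, while PTPRC and FCGR3A were at 0 in both lines. The summed rescaled count of the 8 was 147 to 171 in PANC-1 siCtrl and 1153 to 1242 in HPAF-II libraries, most of the latter from LYZ, a lysozyme gene that epithelial cells also express. Most of the PANC-1 sum came from CD68, at a mean of 158. The part of these markers in the S100A9 value was not tested.

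Among the annexins, ANXA10, ANXA13, ANXA3 and ANXA9 showed the largest excess in HPAF-II. ANXA10, an annexin of the stomach lining, was at 257, 247 and 214 rescaled counts in HPAF-II, and in PANC-1 it was listed at 0 in replicates 1 and 2 and at 0.0612 in replicate 3. ANXA13, an annexin of the gut lining, was at 15.9, 15.8 and 10.3 in HPAF-II and listed at 0 in all 3 PANC-1 siCtrl libraries, so no ratio is given. ANXA3 was at 180.2, 219.6 and 154 against 0.946, 1.18 and 1.47 (ratio 154), and ANXA9 at 61.6, 56.1 and 67.4 against 0.509, 0.675 and 0.533 (ratio 108). Each HPAF-II library of these genes stood above each PANC-1 library. ANXA9 overlaps MINDY1, which was at a mean of 5681 normalized counts in HPAF-II and 2739 in PANC-1.

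ANXA6 was the reverse. It was at 74.8, 71.3 and 72.8 rescaled counts in PANC-1 siCtrl libraries and at 0.693, 0.614 and 0.184 in HPAF-II libraries, 147 times higher in PANC-1. HPAF-II replicate 1, which had the highest ANXA6 value, was also the one with VIM at 15.2. Replicate 2, with ANXA6 at 0.614, had VIM at 0.283. Of the fibroblast markers, COL1A2 and DCN were highest in HPAF-II replicate 1 (3.47 and 0.997), and COL1A1, LUM and PDGFRB in replicate 3. The part of these differences in the ANXA6 level was not tested. S100A3 was lower in HPAF-II, at 0.441, 0.674 and 2.22 against 12.6, 12.3 and 13.2, that is 11.4 times higher in PANC-1, or 22.8 times without HPAF-II replicate 3. LOC101928034, which overlaps S100A3, was at a mean of 303 normalized counts in HPAF-II, where S100A3 itself was at 316. S100Z was at 0.161, 0.258 and 0.186 in PANC-1 and listed at 0 in HPAF-II. ANXA5, which fell in both knockdowns, was lower in HPAF-II as well, at 138, 137 and 117 against 310.2, 297 and 309.7, that is 2.34 times higher in PANC-1. ANXA8L1, at 0.0794, 0.427 and 0.313 against 0.749, 0.479 and 0.731, was the fifth of the genes lower in HPAF-II. Without HPAF-II replicate 1 its libraries overlapped (log2 ratio -0.79) and it was no longer counted.

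S100A4 and S100A16, which moved in opposite directions with siQKI, were both higher in HPAF-II. S100A4 was at 105, 82.6 and 175 against 34.2, 39.1 and 31.8, a ratio of 3.46 (2.68 without replicate 3). S100A16 was at 317, 293 and 545 against 133, 128 and 143, a ratio of 2.87 (2.27 without replicate 3). ANXA4 was at 750.5, 693 and 576 against 120.3, 124 and 118, a ratio of 5.57, and 5.98 without replicate 3. AAK1, which overlaps ANXA4 on the other strand, was at a mean of 8449 normalized counts in HPAF-II and 19170 in PANC-1. S100A13, S100A11 and ANXA11 were also counted as higher, at ratios of 2.51, 2.09 and 2.13. Without replicate 3 the ratio of ANXA11 was 1.99 (log2 0.99), so it was no longer counted. S100A5, not counted with all libraries, was counted as lower without HPAF-II replicate 3 or PANC-1 siCtrl replicate 2, at log2 ratios of -2.57 and -2.40.

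The other members differed by less than 2-fold or overlapped between the lines. S100A2, the basal-like marker, was at 5.05, 4.80 and 5.81 rescaled counts in HPAF-II and at 5.11, 4.61 and 5.04 in PANC-1, groups that overlapped. ANXA2 was at 1692, 1637 and 1673 against 1403, 1412 and 1392, apart but by a ratio of only 1.19. S100A10 was at 684, 695 and 1221 against 729.9, 759 and 678, a ratio of 1.2 that became 0.955 without replicate 3, and S100A6 went from 1.88 to 1.34. Without HPAF-II replicate 1 the log2 ratio of S100A6 was 1.01, and it was counted as higher. ANXA1 was at 178, 196 and 189 against 94.2, 103 and 102 (ratio 1.88), and S100PBP at 7.49, 6.73 and 5.60 against 12.3, 11.4 and 12.6 (1.83 times higher in PANC-1). The libraries of ANXA1, S100A6 and S100PBP did not overlap between the lines, so these genes were apart by less than the 2-fold limit. ANXA7, ANXA8 and S100A1 were the remaining genes below a 2-fold difference.

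**Figure D5:**
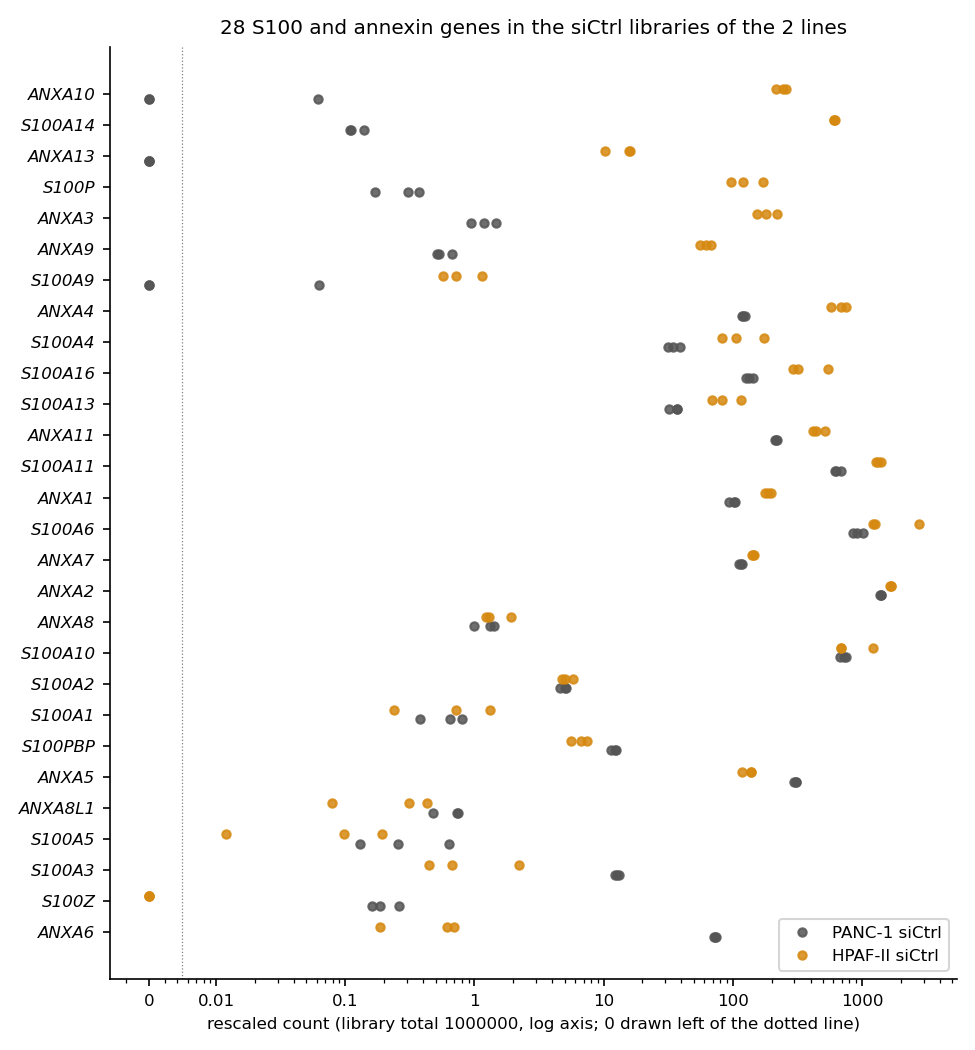
Rescaled counts (library total set to 1000000, log axis) of the 28 members compared between the lines, 1 point per siCtrl library, ordered by the log2 ratio of HPAF-II (orange) to PANC-1 (grey), with values of 0 left of the dotted line. ANXA10, S100A14, ANXA13 and S100P are at the top, far to the right in HPAF-II, and ANXA6 is at the bottom, at 71.3 to 74.8 in PANC-1.

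Genes that act with these families were followed as a list of 31 receptors, binding partners, plasminogen activation genes, S100-fused proteins and related genes, of which 18 were tested in PANC-1. With siQKI 2 rose and 8 fell (backgrounds of 14.9% and 18.1% over all tested genes), and with siRBFOX2 1 rose and 8 fell (12% and 14.5%). Ezrin (EZR), the membrane to actin linker that S100P binds, went from 138783, 131268 and 136957 normalized counts in siCtrl to 92446, 93303 and 92645 in siQKI libraries, a log2 fold change of -0.55 ± 0.04 (limma adjusted p = 3.5e-08), and had -0.29 ± 0.04 with siRBFOX2 (limma adjusted p = 3.9e-05). PLAU, the urokinase that converts plasminogen, fell by 0.49 and 0.56 on the log2 scale, and its receptor PLAUR by 0.62 and 0.58. AHNAK, the giant scaffold bound by the S100A10 and annexin A2 complex, rose by 0.40 and 0.25 on the log2 scale. Also lower in both were CACYBP and SUGT1, which bind S100A6, MYH9, the target of S100A4, and PPFIBP1, a liprin that also binds S100A4. IQGAP1, a scaffold bound by S100 proteins, fell with siQKI, and KCNK3, a potassium channel that S100A10 binds, fell with siRBFOX2. TCHH, a gene of the same chromosome 1 region that encodes an S100-fused hair protein, rose with siQKI. Of the secreted proteins' receptors AGER, TLR4 and BSG were tested and none passed, whereas FPR1, FPR2 and FPR3 were below the minimum.

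Markers of cell state were followed in the same libraries, where 33.0% of all tested genes passed with siQKI and 26.5% with siRBFOX2. CDH1, or E-cadherin, went from 995, 997 and 968 normalized counts in siCtrl to 3026, 2275 and 2528 in siQKI and 1438, 1535 and 1322 in siRBFOX2 libraries, a log2 fold change of 1.39 ± 0.11 and 0.53 ± 0.11 (limma adjusted p of 1.5e-07 and 0.0018). Of 7 duct-type epithelial markers, 2 (CDH1 and MUC1) were higher and 1 (KRT18) lower with siQKI. KRT18 had -0.20 ± 0.05 (limma adjusted p = 0.0072). With siRBFOX2, 1 (CDH1) was higher and 3 were lower, KRT18 at -0.35 and KRT8 and KRT19 at -0.23 each. Of 4 mesenchymal markers, 1 (CDH2) rose and 2 (VIM and ZEB1) fell with siQKI, and CDH2 rose with siRBFOX2. Of 3 markers of the classical subtype, all tested, AGR2 rose with siQKI (0.51 ± 0.06; limma adjusted p = 4.0e-06) and none passed with siRBFOX2. Of 8 myeloid markers, 5 were tested, of which 2 (CD68 and ITGAM) fell with siQKI and 1 (CD68) with siRBFOX2. The summed level of the 8 was 51268 to 57913 in siCtrl, 38970 to 39848 in siQKI and 43733 to 45555 in siRBFOX2 libraries. Nearly all of it was CD68, at means of 54414.5, 38570 and 43259, so the sum follows a single gene. Of 5 fibroblast markers only COL1A1 and PDGFRB were tested, and both rose with each knockdown. The part of these changes in the S100 and annexin values was not tested.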

How the data were processed

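RNA of 9 PANC-1 and 3 HPAF-II libraries had been sequenced as 150-base read pairs by the study. Per the labels, the processing used STAR 2.7.5a, SAMtools, Picard, FastQC and DESeq2 on hg38, and gene coordinates are those of the FAST DB annotation. The deposited values are a signal: counts per gene, scaled by the authors with DESeq2 size factors that were estimated separately for the PANC-1 and the HPAF-II table. Every value was a whole multiple of a step for its library (within 0.01 of a whole number). Of low values, 82.1% to 84.8% were divisible by 3. A step is thus no read or fragment, and the number of reads behind a value is unknown. Library totals were 226697015 to 376192091 steps. Precision was taken from the replicates. Strand and read-pair handling are not given in the sources used here, and overlapping genes are uncertain.

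The knockdowns were tested in limma 3.58.1 (R 4.3.3; eBayes with trend, two-sided) on log2(normalized count + 1), in 1 fit of 9 libraries and 22544 genes averaging 10 or more, adjusted by Benjamini-Hochberg over all of them at 0.05. The pseudocount shrinks the change of genes with low counts, but where a library is at 0 the mean of logs can exceed the ratio of means. The fit was also run on simulated data, with planted changes larger than many of those called here. That run does not bear on the smaller calls. For the lines, values were rescaled to a total of 1000000, with 0.01 added before taking log2, and described without a test. Genes named are members past the threshold, the 12 members with the largest ratio between the lines, members in the study's gene lists, and the targeted genes. Any other is named to account for every member or as part of the partner and marker lists. The members and lists were chosen with earlier results of these data known. Alternatives (pseudocounts, filters, scaling, groups fitted, replicate block, trend, each library left out) are given in the closing section. Summaries were computed in Python 3.11.15 with pandas 2.3.3.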

Additional observations from a re-analysis of the deposited data

How the results depend on the processing

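In the siQKI and siRBFOX2 comparisons with siCtrl, the number of members past the threshold stayed within 1.5 times of the reported 9 and 7 under all 17 alternatives run for each (6 to 11 and 5 to 8). For siQKI against siRBFOX2, reported at 7, it was 3 without the mean-variance trend, and 4 to 9 when 1 library was left out, the lowest without siQKI replicate 2 or siRBFOX2 replicate 1. For HPAF-II against PANC-1, reported at 18, it was 15 to 19. A pseudocount of 1 on rescaled counts reduced the genes of all kinds 2-fold apart from 10599 to 5421, since it shrinks the ratios of genes with low values. No called member changed sign under any alternative run. S100A16, S100A2, ANXA5 and ANXA6 kept their calls in both knockdowns under all 17, as did S100A4 and ANXA11 with siQKI and ANXA7 with siRBFOX2. Without the trend, S100A13 (siRBFOX2) had a limma adjusted p of 0.061, S100A3 (siRBFOX2) 0.11, S100P (siQKI) 0.085 and S100A10 (siQKI) 0.10. The cause was not tested.

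With a replicate block, 8 members passed with siQKI (ANXA4 was lost, limma adjusted p = 0.058), 7 with siRBFOX2 and 7 between the knockdowns. No pairing by replicate number was seen in the values. Deviations of same-numbered libraries from their group means correlated at -0.03 to 0.02 over 9 pairs, and 3 of 9 libraries correlated best with their own number. The labels do not say whether same-numbered libraries were prepared together, and these correlations cannot show it. A count model (edgeR) was not run because a step of the deposited values is not a read. Genes with counts below about 100, such as S100A14 and S100Z, are those where the error limits a call.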
